A study of Mus musculus with 6 samples.

Results

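The common gamma chain cytokine receptors were taken as 7 genes by symbol: Il2ra, Il2rb, Il2rg, Il7r, Il4ra, Il15ra and Il21r. These are 7 of the 27998 genes listed for each library, and all 7 had counts. They were measured by droplet-based single-cell RNA sequencing of iNKT (invariant natural killer T) cells, which are T lymphocytes with a nearly fixed T cell receptor for lipid antigens on CD1d. The cells came from liver, spleen and lymph node of wild-type C57BL/6 mice aged 5 weeks, with no treatment and with 2 libraries per organ. Cells positive for CD8 or B220 were depleted and cells binding a TCR-β antibody and a CD1d tetramer were sorted. The sex of the mice and the number pooled per library are not in the labels, which name the molecule as nuclear RNA.

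The cytokines IL-2, IL-4, IL-7, IL-9, IL-15 and IL-21 share 1 receptor subunit, the common gamma chain encoded by Il2rg. Each pairs it with at least 1 further chain, such as IL-7Rα for IL-7, while IL-2 and IL-15 both use the β chain encoded by Il2rb. Jak1 and Jak3 bound to the chains then activate STAT factors, mostly STAT5, STAT6 or STAT3. In iNKT cells, IL-15 acting through Il2rb is known for the survival and maturation of the iNKT1 subset, and IL-7 for the upkeep of the iNKT17 subset.

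The libraries held 2638 to 2861 cells after filtering and 4758138 to 10870838 unique molecular identifiers (UMIs). The median was 3592 and 2880 UMIs per cell in the liver libraries, 1724 and 1554 in those of spleen, and 1730.5 and 1470 in those of lymph node, so detection per cell was deepest in liver. Xist was counted 5425 to 10553 times in each liver and spleen library and 0 times in both lymph node libraries, while Y-chromosome genes had 0 UMIs in liver and spleen and 1363 and 1581 UMIs in lymph node. The summed level of 12 immediate early and stress genes was 1158 to 1753 CPM (UMIs per 1000000 UMIs of the library, ribosomal and haemoglobin genes left out) in liver and spleen and 7256 and 7800 CPM in lymph node. Organ cannot be told apart from these features in any comparison with lymph node. The T cell receptor complex genes Cd3e, Cd3g and Cd3d and the iNKT factor Zbtb16 summed to 4371 to 5629 CPM in each library, and Cd8a with Cd8b1 to at most 6.99 CPM. Between 6 and 20 cell barcodes were shared by each pair of libraries, 148 barcodes in all.

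In the GRCm38 annotation Il2rb lies at chr15:78479256-78495271 and Il7r at chr15:9505788-9530176, both on the minus strand of chromosome 15. Il2rg lies on the X chromosome at chrX:101264378-101268255. Il2ra (chr2:11642807-11693193) and Il15ra (chr2:11705290-11734317) are neighbours 12096 bases apart, and Il4ra (chr7:125552120-125579474) and Il21r (chr7:125603429-125633570) are neighbours 23954 bases apart. All 7 are protein-coding genes. The genes Gm20489 and Gm44876, which overlap Il2rg and Il4ra, had 0 UMIs.

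The upstream stretch of Il7r is shown because Il7r was the member that rose most from liver to lymph node and because the ETS family factor GABPα, encoded by Gabpa, is a known regulator of this promoter. The 164 bases just before the RefSeq start, chr15:9529877-9530040 of GRCm38.p6 on the minus strand, are given 5′ to 3′ with a match to the ETS core ACTTCC in capitals. GENCODE, the source of the gene positions above, has an Il7r transcript that starts further upstream, so this stretch lies inside its gene, in an intron of that transcript and outside all its exons.
Il7r: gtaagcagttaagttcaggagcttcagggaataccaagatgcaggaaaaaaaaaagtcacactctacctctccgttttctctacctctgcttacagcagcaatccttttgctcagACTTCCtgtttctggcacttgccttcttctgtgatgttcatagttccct
The match begins 49 bases before the RefSeq start. On either strand ACTTCC stood in the 250 upstream bases of 19.7% of the 32851 RefSeq promoters of that length. It stood in those of Il7r and Il2ra among the 6 members with a RefSeq promoter entry, which Il2rb lacks here. The forkhead motif GTAAACA (3.17% of promoters, both strands) was found upstream of Il21r only. The T-box motif GGTGTGA (3.33%) was found upstream of none of the 6. CACCC, the core of sites for Krüppel-like factors such as Klf2, was found upstream of all but Il7r, and in 17087 of the 32851 promoters. These are matches of letters and say nothing of binding.

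Il2rb and Il7r ran in opposite directions over the 3 organs, while the shared chain Il2rg stayed within a narrow range. In each pair of organs several members changed: 3 rose and 1 fell in liver over spleen, 5 rose and 1 fell in liver over lymph node, and 3 rose and 2 fell in spleen over lymph node. Among all 10253 genes tested the share called was 25.8% for liver over spleen (12.8% higher, 13% lower), 37.5% for liver over lymph node (18% higher, 19.6% lower) and 18.2% for spleen over lymph node (7.9% higher, 10.3% lower). The median log2 fold change of the 7 members was 0.27, 0.78 and 0.51 in these comparisons, against 0.02, 0.01 and 0.00 over all genes tested. Levels below are CPM of the UMIs summed over all cells of a library. In such sums fewer cells of a type and less RNA per cell cannot be told apart. The 3 comparisons share libraries and are not independent of each other. Called means a Benjamini-Hochberg adjusted p below 0.05 in edgeR's quasi-likelihood test.

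**Figure D1:**
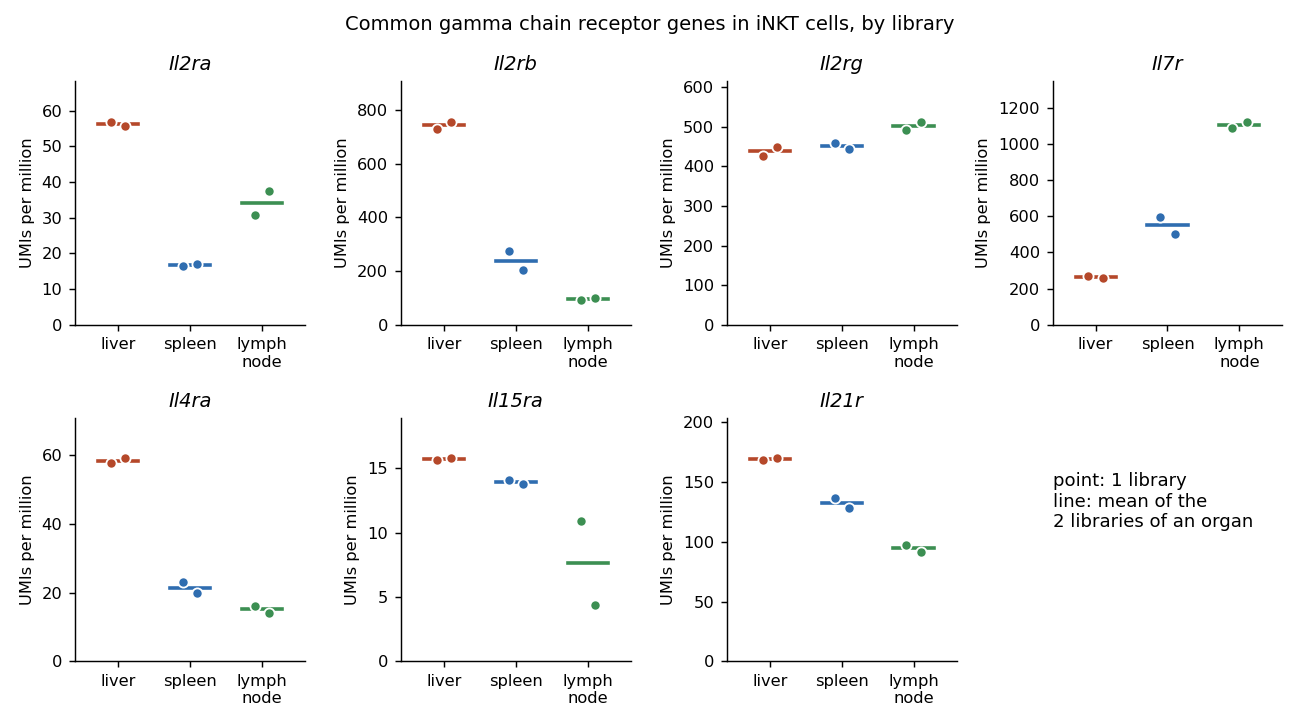
Level of each member in the 6 libraries, in CPM on linear axes that start at 0. Each point is 1 library and each line the mean of the 2 libraries of an organ. Il2rb falls from 731 and 757 CPM in liver to 92.6 and 101 CPM in lymph node, Il7r rises from 271 and 261 to 1086 and 1123 CPM, and Il2rg stays between 427 and 513 CPM.

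Il2rb, the signalling β chain for IL-2 and IL-15, was at 731 and 757 CPM in the liver libraries, 273 and 203 CPM in spleen, and 92.6 and 101 CPM in lymph node. The 3 organs did not overlap and liver was highest. Il2rb was 2.97-fold higher in liver than in spleen (log2 fold change 1.57, SE 0.12, edgeR adjusted p 4.76e-11) and 7.39-fold higher than in lymph node (2.89, SE 0.13, edgeR adjusted p 4.87e-18). Spleen exceeded lymph node 2.49-fold (1.32, SE 0.13, edgeR adjusted p 2.09e-09). Natural killer cells also carry Il2rb. A list of 4 genes of those cells summed to 44.6 and 58.9 CPM in liver, 23.1 and 18.7 CPM in spleen and 7.21 and 11.7 CPM in lymph node, and its part in the Il2rb difference was not tested. Ncr1, the defining receptor of these cells, gave 27 and 45 UMIs for liver, 8 and 7 for spleen, and 0 and 3 for lymph node. In the same order Tyrobp gave 235 and 283, 57 and 44, and 22 and 36 UMIs, Klri2 gave 57 and 34, 23 and 16, and 5 and 3, and Eomes gave 0 and 0, 2 and 1, and 0 and 1. These UMIs are not scaled by depth, which was highest in liver.

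Il7r, which encodes the IL-7Rα chain of the IL-7 receptor, ran the other way. Its level was 271 and 261 CPM in liver, 596 and 502 CPM in spleen, and 1086 and 1123 CPM in lymph node. No organ overlapped another, and lymph node was highest. Il7r was 2.18-fold lower in liver than in spleen (log2 fold change −1.12, SE 0.12, edgeR adjusted p 2.41e-08) and 4.32-fold lower than in lymph node (−2.11, SE 0.12, edgeR adjusted p 1.16e-15). Spleen was 1.98-fold below lymph node (−0.99, SE 0.12, edgeR adjusted p 7.71e-08). The 12 genes of the iNKT17 list summed to 259 and 310 CPM in liver, 182 and 133 CPM in spleen, and 1283 and 1356 CPM in lymph node. Without the iNKT17-like cluster described below, Il7r was still lower in liver than in lymph node (−1.56, edgeR adjusted p 6.33e-13) and in spleen than in lymph node (−0.42, edgeR adjusted p 0.0118).

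Il2rg, the chain common to all these receptors, was at 427 and 450 CPM in liver, 459 and 444 CPM in spleen, and 491 and 513 CPM in lymph node. Liver and spleen overlapped and lymph node was slightly higher. None of the 3 comparisons passed the test (log2 fold change −0.12 for liver over spleen, edgeR adjusted p 0.473; −0.25 for liver over lymph node, edgeR adjusted p 0.0814; −0.13 for spleen over lymph node, edgeR adjusted p 0.478). With the library number as a block, liver over lymph node passed at the same size (−0.25, edgeR adjusted p 0.0406). Il2rg is X-linked, and the lymph node libraries were those without Xist.

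Il2ra, the α chain that raises the affinity for IL-2, was at 56.9 and 55.8 CPM in liver, 16.4 and 17.1 CPM in spleen, and 30.7 and 37.4 CPM in lymph node. The organs did not overlap, and spleen, not lymph node, was lowest. Liver exceeded spleen 3.19-fold (log2 fold change 1.67, SE 0.17, edgeR adjusted p 7.92e-09) and lymph node 1.59-fold (0.67, SE 0.15, edgeR adjusted p 6.08e-04). Spleen was 2.00-fold below lymph node (SE 0.18 on the log2 scale, edgeR adjusted p 1.17e-04). That last call was lost when the iNKT17-like cluster described below was left out (−0.04, edgeR adjusted p 0.943), while liver over lymph node grew to 1.65 (edgeR adjusted p 8.50e-09). Il2ra is also a marker of regulatory T cells: 7 genes of that type summed to 254 and 263 CPM in liver, 471 and 511 CPM in spleen, and 1234 and 1261 CPM in lymph node. Its defining gene Foxp3 was seen in 0 cells of liver and spleen and in 1 and 2 cells of the lymph node libraries, and these 3 cells had 0 Il2ra UMIs.

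Il4ra, the α chain of the IL-4 receptor, was at 57.8 and 59.1 CPM in liver, 23.1 and 19.8 CPM in spleen, and 16.0 and 14.2 CPM in lymph node. Liver lay above both other organs, which were close to each other. Il4ra was 2.58-fold higher in liver than in spleen (log2 fold change 1.36, SE 0.16, edgeR adjusted p 1.82e-07) and 3.71-fold higher than in lymph node (1.89, SE 0.17, edgeR adjusted p 8.83e-11). Spleen over lymph node did not pass (0.53, SE 0.20, edgeR adjusted p 0.0632), except with upper-quartile scaling (0.56, edgeR adjusted p 0.0480).

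Il21r, the receptor chain for IL-21, was at 168 and 170 CPM in liver, 137 and 128 CPM in spleen, and 97.7 and 91.2 CPM in lymph node. The organs did not overlap. Liver over spleen missed the threshold (log2 fold change 0.27, SE 0.11, edgeR adjusted p 0.0726), while lymph node was lower than liver (0.78, SE 0.12, edgeR adjusted p 2.15e-06) and than spleen (0.51, SE 0.12, edgeR adjusted p 0.00229). Both calls against lymph node were lost without the iNKT17-like cluster (0.30, edgeR adjusted p 0.0548, and 0.01, edgeR adjusted p 0.970). Spleen over lymph node was also lost without lymph node library 2 (0.44, edgeR adjusted p 0.0716) and in cells with a mitochondrial share up to 5% (0.26, edgeR adjusted p 0.230).

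Il15ra, which presents IL-15 to neighbouring cells or binds it on the same cell, was the rarest member with 371 UMIs in all. It was at 15.7 and 15.8 CPM in liver, 14.1 and 13.8 CPM in spleen, and 10.9 and 4.37 CPM in lymph node. The lymph node libraries differed from each other by more than liver did from spleen. Liver over lymph node was called (log2 fold change 0.97, SE 0.28, edgeR adjusted p 0.00672), and so was spleen over lymph node (0.88, SE 0.30, edgeR adjusted p 0.0400). Both calls were lost without lymph node library 2 (0.45, edgeR adjusted p 0.291, and 0.35, edgeR adjusted p 0.562) and with DESeq2 (adjusted p 0.0800 and 0.224), while without lymph node library 1 they were 1.80 and 1.70. Spleen over lymph node passed in 6 of 14 alternatives: it was also lost without either liver library (edgeR adjusted p 0.0511 and 0.0519), either spleen library (0.102 and 0.105) or the iNKT17-like cluster (0.0579), and in cells with a mitochondrial share up to 5% (0.63, edgeR adjusted p 0.218). Liver over spleen was not called (0.10, edgeR adjusted p 0.816).

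The contrast of Il2rb with Il7r was then expressed as 1 value per library, the share of Il2rb among the UMIs of both genes. This share counts 3′ UMIs, not molecules per transcript length, and therefore compares libraries and not the levels of the genes. Liver gave 73.0% and 74.4%, spleen gave 31.4% and 28.8%, and lymph node gave 7.85% and 8.27%. The widest exact 95% binomial interval was that of spleen library 2, from 27.0% to 30.6%, and these intervals cover counting error alone. No organ overlapped another. Of the 15 ways to split 6 libraries into 3 pairs, 1 gave an F statistic this large, which is an exact permutation p of 0.0667 and the smallest that this design allows. Within the iNKT1-like cells described below the mean share was 77.4% for liver, 34.4% for spleen and 16.9% for lymph node. Without the iNKT17-like cluster it was 74.5%, 30.8% and 15.5%.

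**Figure D2:**
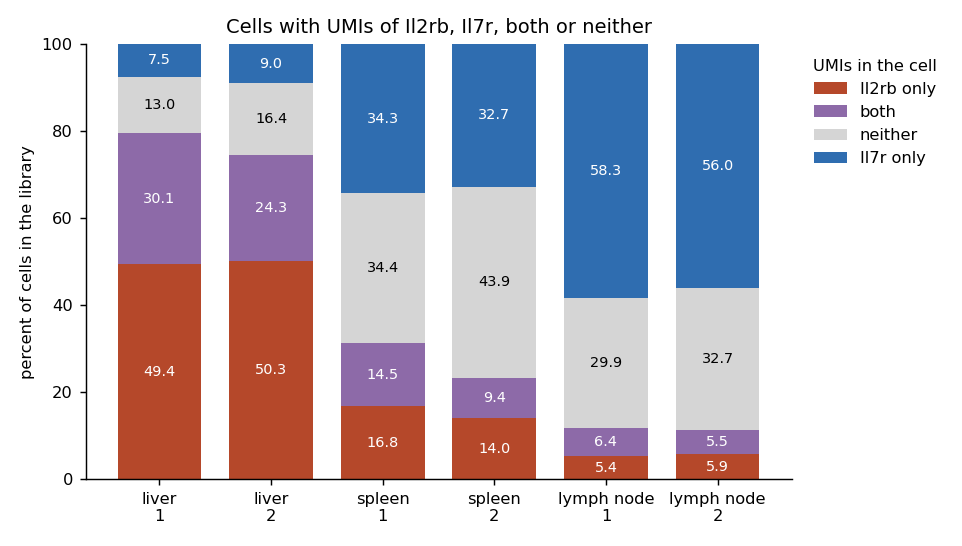
Percent of cells in each library with UMIs of Il2rb only, of both genes, of neither or of Il7r only, stacked to 100% and not corrected for depth. Cells with Il2rb only fill 49.4% and 50.3% of the liver libraries, and cells with Il7r only fill 58.3% and 56.0% of the lymph node libraries.

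Single cells showed the same order. In the plot of the 4 cell groups, Il2rb alone was found in 49.4% and 50.3% of liver cells, 16.8% and 14.0% of spleen cells, and 5.38% and 5.86% of lymph node cells. Il7r alone was found in 7.50% and 9.02%, 34.3% and 32.7%, and 58.3% and 56.0% of cells of these organs. Both genes together were found in 30.1% and 24.3% of liver cells, 14.5% and 9.38% of spleen cells, and 6.41% and 5.51% of lymph node cells. Liver thus had most cells with both, and liver was also the deepest organ.

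To compare detection at 1 depth, each cell was thinned to 1000 UMIs and shallower cells were left out (0 and 9 cells in liver, 144 and 169 in spleen, 265 and 488 in lymph node). Il2rb was then detected in 39.7% and 39.1% of liver cells, 19.9% and 14.4% of spleen cells, and 7.12% and 7.20% of lymph node cells. Il7r was detected in 14.6% and 15.5%, 33.3% and 29.4%, and 49.4% and 52.5%. The organs remained apart for both genes. As a background, the 24 cells of cluster 10 described below, with a median of 1759.5 UMIs, were used. This cluster is a mixture led by the myeloid genes Lyz2 and Apoe, the antigen-presentation gene Cd74 and the B cell gene Cd79a, and 21 of its cells could be thinned: Il2rb was detected in 1 of 21 (4.76%, exact 95% interval 0.120% to 23.8%) and Il7r in 2 of 21 (9.52%, 1.17% to 30.4%). The Il2rb shares of the spleen and lymph node libraries lay inside this interval and those of liver lay above it. The Il7r shares of liver and of spleen library 2 lay inside theirs, and those of spleen library 1 and of lymph node lay above it. Since 16 of the 24 cells came from liver, 3 from spleen and 5 from lymph node, and all 10 of their Il2rb UMIs lay in liver cells, the intervals give no background for spleen or lymph node.

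At the same depth Il2rg was detected in a mean of 25.1% of liver cells, 29.3% of spleen cells and 31.1% of lymph node cells, against 4 of 21 cells of cluster 10 (19.0%). Il21r was detected in 10.6%, 9.33% and 6.32% of cells, Il2ra in 3.82%, 1.60% and 2.73%, Il4ra in 3.77%, 1.64% and 1.35%, and Il15ra in 0.989%, 1.12% and 0.591%. Cluster 10 had Il21r in 1 of 21 and Il2ra, Il4ra and Il15ra in 0 of 21, a number that allows up to 16.1% of cells (exact interval). The highest UMI count in any cell was 14 for Il7r, 10 for Il2rb, 8 for Il2rg and 2 to 6 for the others.

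Whether the 2 genes meet in the same cell was described per library by the odds ratio of detecting both, on cells thinned to 1000 UMIs. With 1 standing for independence, the ratio was 0.80 and 0.89 in the liver libraries, 0.80 and 0.88 in those of spleen, and 0.48 and 0.43 in those of lymph node. At this depth every library was below 1, and the lymph node libraries were lowest. In lymph node 56 and 57 cells held both genes, where independence would give 83.5 and 89.3. In liver 144 and 162 cells held both, where it would give 162 and 172. In spleen 151 and 98 cells held both, where independence would give 171 and 106. Within iNKT1-like cells alone the ratio was 0.75 and 1.10 for liver, 0.95 and 0.90 for spleen, and 0.95 and 0.43 for lymph node, where it rested on 44 and 74 cells with 2 cells each holding both genes. The libraries of liver and of lymph node thus lay far apart there, and without library 2 the lymph node value would be 0.95. Cells of 1 library are not replicates, so no p is given.

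Cells were clustered without the 7 members and clusters were named from marker lists. Of 11 clusters, clusters 0 and 1 were named iNKT1-like (6665 cells), cluster 4 iNKT17-like (1966 cells) and cluster 5 recent thymic emigrant-like (RTE-like, 899 cells), and smaller ones were named for NF-kB genes, Gzma, cell cycle or interferon response. Clusters 2 and 3 (4957 cells) stayed without a name, cluster 2 coming almost wholly from lymph node and led by Ccl1, Dusp1 and Nrgn. Cluster 10 (24 cells) was left without a cell type here, since its leading genes are of both B cells and myeloid cells. No cluster met the rule for iNKT2-like cells at this resolution, whereas at resolution 1.0 a cluster of 684 cells led by Ccl1, Nrgn and Pdcd1, with 356 and 315 cells in lymph node, met it with 5 of 8 markers 2-fold up. Cells were grouped on the same RNA, so levels across clusters are a description with no test.

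**Figure D3:**
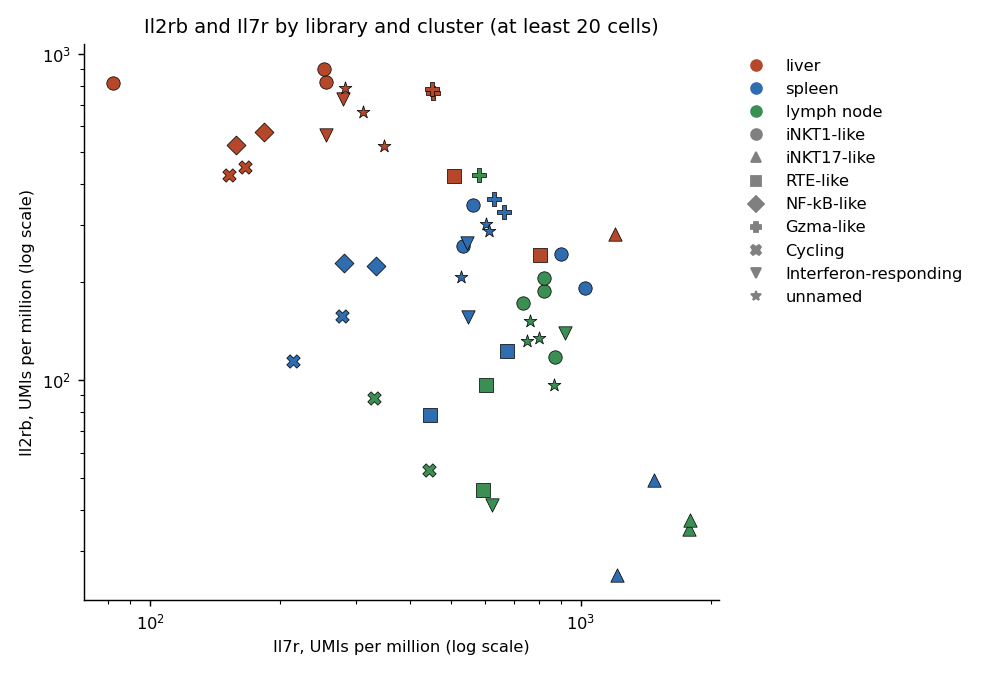
Il2rb against Il7r, in CPM on 2 log axes. Each symbol is the sum over 1 cluster in 1 library with at least 20 cells, coloured by organ and shaped by class. Most liver sums lie at the upper left, while the iNKT17-like sum of liver library 2 (Il7r 1200 and Il2rb 282 CPM) and the RTE-like sum of liver library 1 (804 and 241 CPM) lie further right and lower. The 2 lymph node iNKT17-like sums lie at the lower right, with Il2rb at 34.9 and 37.4 CPM and Il7r at 1785 and 1792 CPM.

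Il7r was highest in iNKT17-like cells, at 1494 CPM ± 291 (SD over 5 libraries with at least 20 cells). The other classes followed from 605 CPM ± 126 in RTE-like cells over 543 CPM ± 254 in iNKT1-like cells down to 264 CPM ± 111 in cycling and 240 CPM ± 82.9 in NF-kB-like cells. The NF-kB-like mean rests on the 4 liver and spleen libraries and is not comparable with the cycling mean, which holds lymph node too. Neighbours in this order other than the iNKT17-like class overlapped within 1 SD. The iNKT17-like class supplied 58.6% ± 2.94 (SD, n = 2) of the Il7r UMIs of lymph node, 4.80% ± 0.361 of those of liver and 3.25% ± 0.879 of those of spleen. It held 32.4% and 35.4% of lymph node cells, 0.643% and 0.979% of liver cells, and 1.28% and 0.829% of spleen cells.

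Il2rb had the lowest class mean in iNKT17-like cells (85.7 CPM ± 110) and was higher in RTE-like (168 CPM ± 141), cycling (215 CPM ± 176), iNKT1-like (441 CPM ± 330) and Gzma-like cells (530 CPM ± 222), with the SD over 5 or 6 libraries. With 10 principal components the iNKT17-like mean, then over 6 libraries, was 132 CPM ± 156 and still lowest. RTE-like cells (240 CPM) then exceeded cycling cells (215 CPM). The Gzma-like cluster scored highest for the natural killer cell list, with Cd3e at −0.35 (log2) against the other cells. In the liver libraries iNKT1-like cells (821 and 894 CPM) exceeded Gzma-like cells (760 and 781 CPM). Both liver libraries lay above all others in each of these classes. That widened the SD, although the iNKT17-like mean holds only liver library 2 (282 CPM). Liver library 1, with 18 iNKT17-like cells, was left out there at 338 CPM, above its RTE-like level of 241 CPM. In lymph node 71.9% ± 2.22 (SD, n = 2) of Il2rb UMIs came from the clusters without a name and 3.75% ± 0.414 from iNKT1-like clusters. In liver 67.9% ± 5.62 came from iNKT1-like clusters, which held 65.3% and 56.5% of liver cells. In lymph node the clusters without a name held 56.2% and 52.8% of cells and iNKT1-like clusters 2.01% and 3.62%.

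Other members had a pattern of their own. Il2ra was highest in NF-kB-like cells (87.5 CPM ± 14.0, 4 libraries), followed by iNKT17-like cells (47.2 CPM ± 27.7), and was low in RTE-like (10.5 CPM ± 9.22) and cycling cells (10.9 CPM ± 15.4). No cluster was named NF-kB-like with 10 principal components or with UMI count and mitochondrial share not regressed out. Without that regression interferon-responding cells (55.4 CPM) exceeded iNKT17-like cells (47.4 CPM). Of the Il2ra UMIs of lymph node, 67.8% ± 7.34 came from iNKT17-like cells, whereas in liver 62.6% ± 3.57 came from iNKT1-like cells. These classes held 32.4% and 35.4% of lymph node cells and 65.3% and 56.5% of liver cells. Il21r was lowest in iNKT17-like cells (38.8 CPM ± 23.3) and between 88.8 and 185 CPM in the other classes. Il4ra was at 7.16 CPM ± 6.82 there and at 15.1 CPM ± 15.9 in cycling cells, an order that turned with 10 principal components (17.8 and 14.3 CPM). Il2rg ranged only from 299 CPM ± 33.2 in cycling cells to 578 CPM ± 97.3 in NF-kB-like cells.

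**Figure D4:**
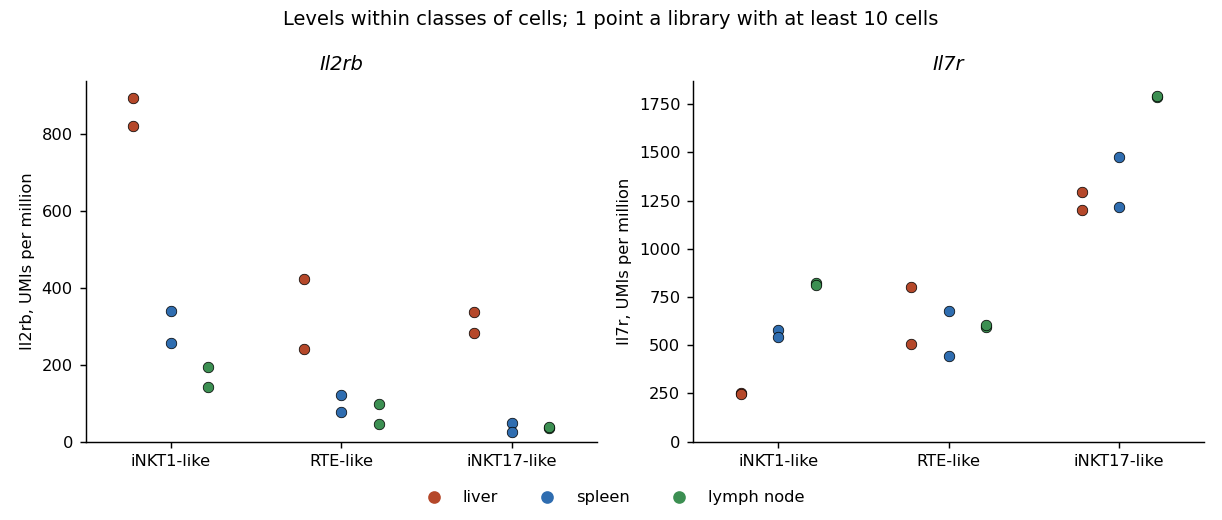
Il2rb (left) and Il7r (right) within 3 classes of cells, in CPM on linear axes that start at 0. Each point is 1 library with at least 10 cells. Within each class the liver points lie above the others for Il2rb, and for Il7r the organs separate in iNKT1-like cells but overlap in RTE-like cells.

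Within classes, the next question was whether organs still differed once like cells were compared. In iNKT1-like cells 20.4% of the 9033 genes tested were called in liver over spleen (9.87% higher, 10.5% lower), and 3 members were higher and 1 lower. Il2rb was at 821 and 894 CPM in liver and 339 and 256 CPM in spleen (log2 fold change 1.45, SE 0.13, edgeR adjusted p 8.49e-25). Il7r was at 254 and 246 CPM in liver and 581 and 545 CPM in spleen (−1.25, SE 0.13, edgeR adjusted p 8.17e-19). For both genes the organs did not overlap. Il2ra (1.38, SE 0.21, edgeR adjusted p 3.88e-09) and Il4ra (1.03, SE 0.20, edgeR adjusted p 5.39e-06) were higher in liver as well. Il21r, Il2rg and Il15ra were not called, although with the library number as a block Il2rg was (−0.28, edgeR adjusted p 0.0286). The liver cells of this class were mostly cluster 0 (1813 and 1548 cells) and the spleen cells mostly cluster 1 (1406 and 1551 cells).

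Lymph node had 53 and 103 iNKT1-like cells. Their Il2rb level was 193 and 142 CPM and their Il7r level 821 and 812 CPM, so that lymph node continued the order of the organs in the class as a whole. These cells were split between cluster 0 (31 and 52) and cluster 1 (22 and 51). In cluster 0 Il7r was higher in spleen (897 and 1022 CPM, 73 and 33 cells) than in lymph node (820 and 872 CPM). In cluster 1 it was lower in spleen (563 and 532 CPM against 822 and 735 CPM). Liver over lymph node (3.93% of genes called, 2.36% higher and 1.57% lower) had 2 members higher, Il2rb and Il4ra, and 1 lower, Il7r. It was 2.48 for Il2rb (log2, SE 0.25, edgeR adjusted p 1.86e-20) and −1.63 for Il7r (SE 0.18, edgeR adjusted p 2.95e-16). Spleen over lymph node (1.62% of genes called, 0.963% higher and 0.653% lower) was 1.03 for Il2rb, the 1 member called (SE 0.28, edgeR adjusted p 0.0209), a call lost without spleen library 1 or either lymph node library. For Il7r it was −0.38 (edgeR adjusted p 0.378), but −0.59 and called at resolution 1.0 (edgeR adjusted p 0.00676). At that resolution Il2ra (1.54, edgeR adjusted p 0.0395) and Il21r (0.89, edgeR adjusted p 0.0184) were also called in liver over lymph node. Il4ra had 0 UMIs in the lymph node cells of this class, among 168060 UMIs. Taking 3 counts over the group as the floor (17.9 CPM), Il4ra was at least 3.50-fold higher in liver (62.4 CPM, edgeR adjusted p 4.38e-04). For spleen (28.9 CPM) the ratio to this floor was 1.62, but spleen over lymph node was not called (edgeR adjusted p 0.0731). Il15ra had 0 UMIs there too, but the other organs were at or under the floor.

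iNKT17-like cells were few outside lymph node (18 and 28 in liver, 35 and 22 in spleen), and only Il2rb, Il2rg and Il7r passed the filter on low counts there. Il7r was at 1294 and 1200 CPM in liver, 1477 and 1215 CPM in spleen, and 1785 and 1792 CPM in lymph node. Liver over lymph node was called for Il7r (log2 fold change −0.52, SE 0.18, edgeR adjusted p 0.0301, with 18.1% of 1515 genes called, 9.57% higher and 8.51% lower), a call lost without either liver or either lymph node library. Il2rg was not called there (−0.61, SE 0.24, edgeR adjusted p 0.0596) but passed with no filter on low counts (−0.89, edgeR adjusted p 0.0107), without liver library 2 (−1.04, edgeR adjusted p 0.0315) and without either spleen library (−0.64 and −0.65, edgeR adjusted p 0.0459 and 0.0447). Il7r in spleen over lymph node was −0.47 (edgeR adjusted p 0.170), and −0.67 with no filter (edgeR adjusted p 0.0469). Il2rb was at 338 and 282 CPM in liver, 49.2 and 25.3 CPM in spleen, and 34.9 and 37.4 CPM in lymph node. Liver stood apart, on 23 and 19 UMIs in 18 and 28 cells. Il2rb passed the filter on low counts only through the liver libraries, where it was high. The liver calls that follow therefore describe that height and are no further support for it. Liver over spleen (3.37% of genes called, 2.51% higher and 0.858% lower) was 3.03 (SE 0.56, edgeR adjusted p 2.34e-05), a call lost without liver library 1 or either spleen library. Liver over lymph node was 3.09 (SE 0.32, edgeR adjusted p 3.96e-20). In spleen over lymph node, where 5.02% of genes were called (1.85% higher, 3.17% lower), 0 of the 3 members were called.

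RTE-like cells, with 4 members passing the filter, likewise had more Il2rb in liver. The values were 241 and 422 CPM in liver, 122 and 78.4 CPM in spleen, and 46.2 and 97.0 CPM in lymph node. Spleen and lymph node overlapped. Liver over spleen (4.44% of 2838 genes called, 3.21% higher and 1.23% lower) was 1.77 (log2, SE 0.27, edgeR adjusted p 6.07e-05), a call lost without liver library 2, and liver over lymph node (9.06%, with 4.09% higher and 4.97% lower) was 2.27 (SE 0.40, edgeR adjusted p 1.28e-04), lost without lymph node library 1. Spleen over lymph node, with 6.41% of genes called (1.23% higher, 5.18% lower), had 0 of the 4 members called. Il7r was at 804 and 507 CPM in liver, 675 and 445 CPM in spleen, and 593 and 603 CPM in lymph node, overlapping in all organs and not called. Il2rg and Il21r were not called either.

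The liver values of the rarer classes were set beside RNA that other cells may have left in the droplets. The iNKT1 genes Ccl5, Nkg7, Klrd1 and Xcl1 were in liver iNKT17-like cells at 11.3% to 36.9% of their iNKT1-like level, and Il2rb at 36.4%. In liver RTE-like cells the same genes were at 25.1% to 37.2% and Il2rb at 40.8%. In the 16 liver cells of the mixed cluster 10 Il2rb was at 37.5% of the iNKT1-like level. There it had 9 UMIs in 4 cells of library 1 (726 CPM, exact 95% Poisson interval 332 to 1378) and 1 UMI in 12 cells of library 2 (52.9 CPM, 1.34 to 295). The 2 libraries thus set no common background level for liver, and the part of such RNA in the Il2rb level of the liver iNKT17-like and RTE-like cells was not tested.

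Cells with UMIs of Il2rb only were next compared with cells with UMIs of Il7r only in the same library, over 12 sums with library as a block and with both genes left out. Of 8501 genes, 305 (3.59%) were called, 116 (1.36%) higher and 189 (2.22%) lower in cells with Il2rb only. Of the 5 other members Il21r alone was called. It averaged 143 CPM ± 25.6 in cells with Il2rb only and 111 CPM ± 28.6 in cells with Il7r only (SD over 6 libraries), and was higher in 6 of 6 libraries (log2 fold change 0.36, SE 0.10, edgeR adjusted p 0.0175). The call was kept in 5 of 14 alternatives. It was lost with no replicate block (edgeR adjusted p 0.0551), with DESeq2 (adjusted p 0.210), with at least 2 UMIs of the one gene (0.55, edgeR adjusted p 0.0773) and in iNKT1-like clusters (0.22, edgeR adjusted p 0.937). It was also lost without the iNKT17-like cluster (0.20, edgeR adjusted p 0.345), with cells thinned to 1000 UMIs (0.17, edgeR adjusted p 0.832), or without liver library 1, spleen library 1 or lymph node library 2 (0.30 to 0.37, edgeR adjusted p 0.0602 to 0.0962). Il2ra (0.21), Il4ra (0.17), Il15ra (0.15) and Il2rg (0.00) were not called.

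**Figure D5:**
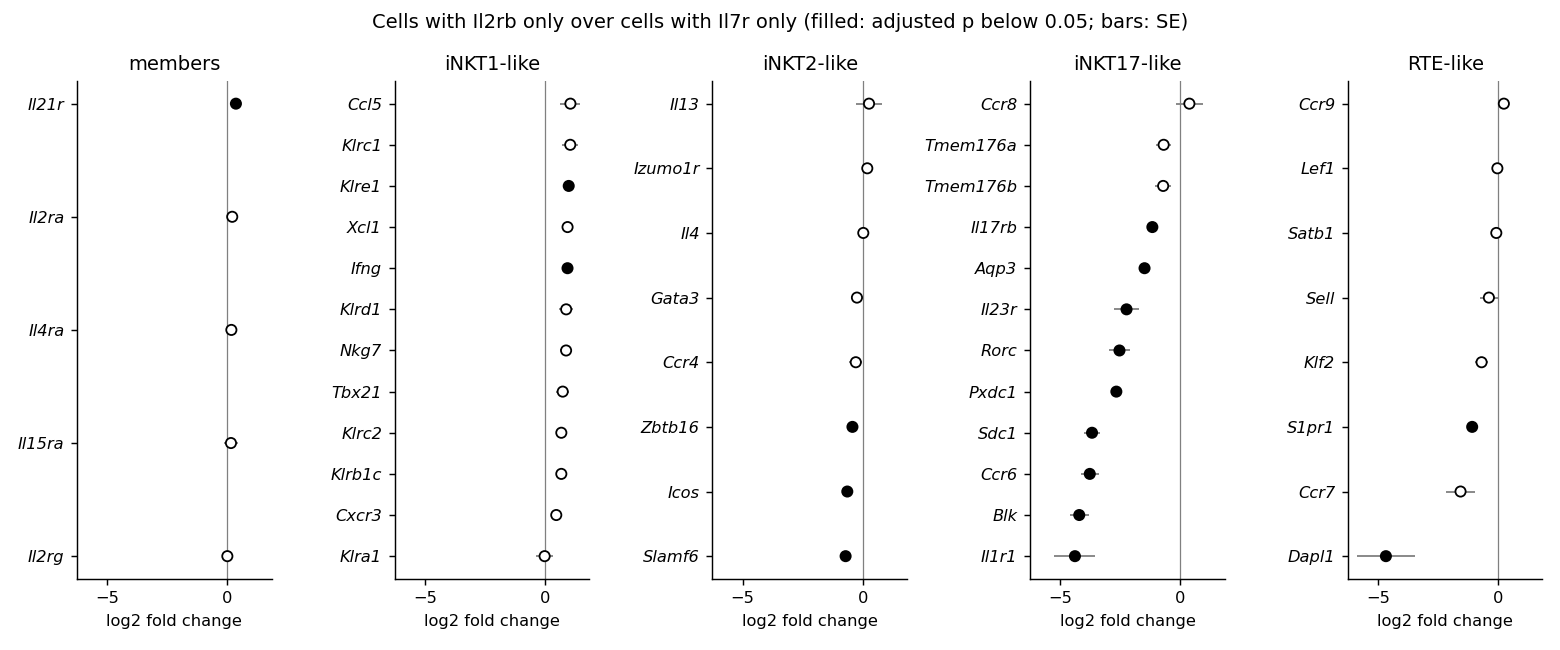
Log2 fold change of cells with Il2rb only over cells with Il7r only for the other 5 members and 4 lists of subset markers; filled points have an adjusted p below 0.05, open points do not, and bars are SE. Il1r1, Blk, Ccr6 and Sdc1 of the iNKT17 list lie between −4.40 and −3.68, and the iNKT1 list lies mostly to the right of 0 with Klre1 and Ifng filled.

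Of the 12 iNKT17 markers, 9 fell in cells with Il2rb only and 0 rose. The median log2 fold change of the list was −2.39, against 0.00 over all genes. Blk, a Src family kinase, was at 4.49 CPM ± 7.04 in cells with Il2rb only and 48.4 CPM ± 56.8 in cells with Il7r only (−4.22, SE 0.39, edgeR adjusted p 4.44e-13). Ccr6, the receptor for CCL20, changed by −3.78 (SE 0.37, edgeR adjusted p 2.31e-12) and Sdc1, the proteoglycan syndecan-1, by −3.68 (SE 0.35, edgeR adjusted p 6.02e-13). Without the iNKT17-like cluster Ccr6 (−1.22, edgeR adjusted p 0.727) and Sdc1 (−2.17, edgeR adjusted p 0.0545) were not called. Over the alternatives Blk ranged from −6.43 to −2.86, Ccr6 from −5.43 to −1.22 and Sdc1 from −6.25 to −2.17. Blk, Ccr6 and Sdc1 were lower in 6 of 6 libraries. Il1r1, the IL-1 receptor, had 1 UMI in the cells with Il2rb only and 120 UMIs in those with Il7r only, a ratio of 119 (exact 95% counting interval 21.0 to 4749) over UMIs pooled from all libraries. These groups draw on different organs, and the fit with library as a block gave −4.40 (SE 0.86, edgeR adjusted p 2.66e-04) for Il1r1, and −5.47 without liver library 2. Il1r1 passed the filter on low counts only through the cells with Il7r only, so its call is no further support for these counts.

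Of 12 iNKT1 markers, 2 rose and 10 were not called. The 2 were Klre1, a receptor of natural killer cells (0.99, SE 0.20, edgeR adjusted p 0.0132), and Ifng, the cytokine interferon-γ (0.94, SE 0.20, edgeR adjusted p 0.0258), both higher in 6 of 6 libraries. The call of Ifng was kept in 9 of 14 alternatives (edgeR adjusted p up to 0.816) and lost without liver library 1 or either spleen library, whereas that of Klre1 was lost in 1 of 14, limited to iNKT1-like clusters. The median of the list was 0.88. Of the 8 iNKT2 markers 3 fell: the signalling receptor Slamf6 (−0.71, SE 0.15, edgeR adjusted p 0.00881, lower in 4 of 6 libraries), the costimulator Icos (−0.64, SE 0.06, edgeR adjusted p 1.05e-13) and Zbtb16 (−0.43, SE 0.12, edgeR adjusted p 0.0228), the last 2 lower in 6 of 6. Icos was called in 14 of 14 alternatives, Slamf6 in 8 (adjusted p up to 0.954) and Zbtb16 in 4 (adjusted p up to 0.975). Slamf6 was lost without either liver library or spleen library 1, and Zbtb16 without any of these 3 or lymph node library 2. Of the 8 RTE markers 2 fell. S1pr1, the receptor that guides exit from lymphoid tissue, changed by −1.08 (SE 0.17, edgeR adjusted p 6.38e-06), a call lost with cells thinned to 1000 UMIs and in iNKT1-like clusters. Dapl1 had 0 UMIs in cells with Il2rb only and 66 in cells with Il7r only, and against a floor of 3 counts over the group was at least 21.9-fold lower. This bound pools all libraries, and since the groups draw on different organs it is not a fold within a library. Dapl1 passed the filter on low counts only through the cells with Il7r only, so its calls are no further support for these counts. In the fit with library as a block Dapl1 was called (edgeR adjusted p 0.0131) and had a value in 7 of the alternatives. It was called in 6 of these 7 (adjusted p up to 0.9998), 3 of them fits without 1 library. Of the other lists, Irf8 (1.09, edgeR adjusted p 1.33e-05) and Nfkbia (0.22, edgeR adjusted p 0.0435) of the NF-kB list, Isg15 (0.33, edgeR adjusted p 0.00218) of the interferon list and Pcna (0.28, edgeR adjusted p 0.0498) of the cycling list rose. Of 14 alternatives the call was kept by Irf8 in 12, Isg15 in 8, Nfkbia in 4 and Pcna in 2. Isg15 was down to 0.015 and Nfkbia to −0.12 in iNKT1-like clusters. Leaving out 1 library ended no call of Irf8 or Isg15, but ended that of Nfkbia for each spleen and lymph node library and that of Pcna for each library except liver library 1.

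Lymph node differed from the other organs in this comparison. Within liver, spleen and lymph node 1.41%, 1.53% and 3.29% of genes were called. Of the 12 iNKT1 markers 6 rose among liver cells, 9 among spleen cells and 12 among lymph node cells, with median log2 fold changes of 0.42, 0.69 and 2.03. A test of the difference between organs (interaction of cell group and organ, edgeR) called 11 of the 12 for liver against lymph node and 9 for spleen against lymph node, where 104 and 61 of all 8501 genes were called. For liver against spleen edgeR called 0 of the 12 and 6 of the 8501 genes (467 at an unadjusted p below 0.05). In lymph node the cells with Il2rb only were also shallower, with a median of 1375 and 1292 UMIs against 1892 and 1621.5, whereas in liver they had 3585.5 and 2899.5 against 3370 and 2783, and most iNKT17-like cells are in that organ. Limited to iNKT1-like clusters in all organs, 22 genes were called.

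The other genes of the pathway were taken from a list of 43 grouped by role, of which 35 were tested. In liver over spleen 16 rose and 2 fell (12.8% and 13% of all genes tested), in liver over lymph node 15 rose and 4 fell (18% and 19.6%), and in spleen over lymph node 5 rose and 5 fell (7.9% and 10.3%). The medians of the list were 0.47, 0.26 and 0.01, against 0.02, 0.01 and 0.00 for all genes tested. The list was drawn up with earlier results of these data known.

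Of 8 targets 6 rose and 0 fell in liver over spleen, and of 6 feedback genes 4 rose and 0 fell, where 12.8% of all genes tested rose and 13% fell. In liver over lymph node 5 targets and 3 feedback genes rose and 0 fell (18% and 19.6% of all genes). Bcl2, which protects cells from apoptosis, was at 792 and 510 CPM in liver, 87.5 and 91.2 CPM in spleen, and 66.2 and 62.0 CPM in lymph node. Liver was far above both other organs, although its 2 libraries differed from each other. The log2 fold change of Bcl2 was 2.78 over spleen (SE 0.16, edgeR adjusted p 1.90e-10) and 3.28 over lymph node (SE 0.16, edgeR adjusted p 1.83e-12).

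Socs2, a suppressor of cytokine signalling, was at 263 and 232 CPM in liver, 58.3 and 60.4 CPM in spleen, and 58.7 and 54.6 CPM in lymph node. Cish, a STAT5-induced member of the same family, was at 95.8 and 71.4 CPM, 25.7 and 19.3 CPM, and 23.0 and 25.1 CPM in these organs. Both stood higher in liver than in either other organ, and spleen and lymph node overlapped. Liver over spleen was 1.98 for Socs2 (SE 0.12, edgeR adjusted p 1.19e-13) and 1.81 for Cish (SE 0.16, edgeR adjusted p 1.04e-09). Against lymph node the values were 2.07 (edgeR adjusted p 3.16e-15) and 1.74 (edgeR adjusted p 2.25e-10). Of the other feedback genes Socs1 (0.72, edgeR adjusted p 5.31e-05) and Socs3 (0.72, edgeR adjusted p 0.00981) rose over spleen. The call of Socs3 was kept in 11 of 14 alternatives, and the losses included those without liver library 1 or spleen library 2.

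Further targets rose in liver over spleen: the kinases Pim1 (log2 fold change 1.10, edgeR adjusted p 9.65e-08) and Pim2 (0.83, edgeR adjusted p 0.00158), the pro-apoptotic Bcl2l11 (1.08, edgeR adjusted p 1.30e-06) and the anti-apoptotic Bcl2l1 (0.96, edgeR adjusted p 1.46e-05). Over lymph node Bcl2l11 (1.42, edgeR adjusted p 1.99e-09) and Mcl1 (0.60, edgeR adjusted p 2.41e-04) rose. Pim1 was at 299 and 311 CPM in liver, 151 and 118 CPM in spleen, and 390 and 329 CPM in lymph node. It was therefore lowest in spleen, and spleen over lymph node was −1.40 (SE 0.13, edgeR adjusted p 2.32e-10). In that comparison Bcl2 (0.50, edgeR adjusted p 0.0451), Ccnd2 (0.38, edgeR adjusted p 0.0325), Socs3 (−0.71, edgeR adjusted p 0.0190) and Shc1 (−0.54, edgeR adjusted p 0.0489) passed narrowly. Of 14 alternatives the call was kept in 7 for Bcl2, 9 for Ccnd2, 10 for Socs3 and 8 for Shc1, and each was lost without spleen library 2 and without lymph node library 2. Without lymph node library 1 Bcl2 and Ccnd2 were lost, and without spleen library 1 Bcl2.

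Jak1 and Jak3, the kinases bound to the chains, were called in 0 of 2 cases in liver over spleen and 1 of 2 in liver over lymph node, where 25.8% and 37.5% of all genes were called. Of the 4 STAT genes 1 and 2 were higher in liver in these comparisons (12.8% and 18% of all genes). The adaptor Irs2 was low, at 3.36 and 2.28 CPM in liver, 2.05 and 2.76 CPM in spleen, and 10.1 and 9.83 CPM in lymph node. It was higher in lymph node than in liver (−1.86, edgeR adjusted p 4.98e-05) and than in spleen (−2.03, edgeR adjusted p 2.49e-04).

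Among the ligands, 3 of 7 passed the filter on low counts. Il21, made by activated T cells, was at 0.699 and 1.30 CPM in liver, 0.770 and 0.551 CPM in spleen, and 6.41 and 5.73 CPM in lymph node. Lymph node stood above both organs (liver over lymph node −2.65, edgeR adjusted p 3.55e-05, and spleen over lymph node −3.12, edgeR adjusted p 1.74e-04). The Il21 counts were small: liver gave 5 and 8 UMIs, spleen 3 and 2, lymph node 24 and 21. Il21 passed the filter only through the lymph node libraries, where it was high. Its calls therefore describe that height and are no further support for it. Il2 was at 20.8 and 26.5 CPM in liver, 33.4 and 37.5 CPM in spleen, and 38.2 and 40.7 CPM in lymph node, lowest in liver (−0.79 over lymph node, edgeR adjusted p 3.26e-04). Il4, the ligand of the Il4ra chain, lay at 133 to 160 CPM in all libraries. Il7 had at most 1 UMI and Il15 at most 12 UMIs in any library, and Il9 had 0.

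Of the genes known as regulators of Il2rb or Il7r, Tbx21, the T-box factor that drives Il2rb, was at 117 and 135 CPM in liver, 96.0 and 74.7 CPM in spleen, and 29.4 and 27.8 CPM in lymph node. Gfi1, a repressor of Il7r, was at 30.5 and 31.1 CPM, 27.2 and 21.2 CPM, and 8.01 and 6.00 CPM in these organs. Both genes were lowest in lymph node. Liver over lymph node was 2.08 for Tbx21 (edgeR adjusted p 2.77e-13) and 2.07 for Gfi1 (edgeR adjusted p 5.95e-09), and spleen over lymph node was 1.60 (edgeR adjusted p 9.17e-10) and 1.81 (edgeR adjusted p 7.59e-07).

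Klf2, which keeps T cells in circulation, was at 165 and 138 CPM in liver, 340 and 302 CPM in spleen, and 147 and 179 CPM in lymph node. Spleen was highest, and the log2 fold change was −1.16 for liver over spleen (edgeR adjusted p 1.24e-08). For spleen over lymph node it was 1.00 (edgeR adjusted p 1.12e-07). Gabpa lay at 26.7 to 37.2 CPM in all 6 libraries and was called in no organ comparison.

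In cells with Il2rb only over cells with Il7r only, 3 of the 35 pathway genes tested rose and 0 fell, where 1.36% of all genes rose and 2.22% fell. They were Socs2 (0.63, SE 0.10, edgeR adjusted p 3.10e-06), Bcl2l11 (0.54, SE 0.15, edgeR adjusted p 0.0263) and Pim1 (0.28, SE 0.07, edgeR adjusted p 0.0109).

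Genes with a pattern most like that of Il2rb and of Il7r were ranked by Spearman's rho over 39 sums of 1 cluster in 1 library with at least 50 cells, among 5895 genes. Closest to Il2rb were H2-Q7 (0.947), Nedd9 (0.936), Gimap7 (0.929), Gimap3 (0.915) and Ccnd3 (0.911). Closest to Il7r were Il18r1 (0.888), Tmem50a (0.874), Ftl1 (0.851), Gpr183 (0.848) and Zfand6 (0.839). Il2rb and Il7r had a rho of −0.603 with each other. Among the members, Il21r (0.668), Il4ra (0.629) and Il2ra (0.487) ran with Il2rb, and Il2rg (0.426) was closest to Il7r. The sums share 6 libraries and their depth, so these values are a description.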

How the data were processed

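The deposited matrices hold raw counts of UMIs per gene and cell barcode, made by the authors with Cell Ranger 3.1.0 (10x Chromium 3′ v2 libraries, mm10), while the deposited gene and barcode lists hold other values (names). The submitters' processing notes also name Seurat. The version of the annotation is not given in the sources used here, so positions are from GENCODE vM21, matched by Ensembl identifier (98.7% of genes).

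Of 16587 barcodes, 16532 with 300 to 4000 genes and at most 15% mitochondrial UMIs were kept. Left out were 110 genes for ribosomal proteins, ribosomal RNA or haemoglobin. No doublet caller was run. UMIs were summed per library. edgeR 4.0.16 in R 4.3.3 (filterByExpr with a minimum count of 10, TMM, robust quasi-likelihood) compared organs in 1 fit with organ as the only term, and cell groups with library as a block, with Benjamini-Hochberg adjustment and a call below 0.05. The study describes the 2 libraries of an organ as biological repeats. The numbers of the libraries pair nothing in the labels, and deviations of same-numbered libraries correlated at 0.068 to 0.086 over 10253 genes.

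Cells were clustered with scanpy 1.11.5 and leidenalg 0.10.2 on Python 3.11.15 (3000 variable genes without the members, UMI count and mitochondrial share regressed out, 20 principal components, 20 neighbours, resolution 0.5). A cluster took a name at a median log2 fold of at least 1 with at least 3 markers 2-fold up. This rule left out the iNKT1, iNKT2 and immediate early lists. The natural killer and innate lymphoid cell lists could give a name only with Cd3e at least 2-fold lower than in the other cells. Other clusters were called iNKT1-like where that list's median was above 0 and highest, the natural killer and innate lymphoid cell lists aside. The iNKT2-like name needed that list's median above 0 and highest, with at least 3 markers 2-fold up. The naming thresholds were chosen with the clusters in view, and names may differ from the authors' own. The members and all lists were chosen with earlier results of these data known. All 7 members were named throughout. Of the pathway list the called genes with the largest folds were named (at most 10 per organ pair), and of each marker list the 4 called genes with the largest fold in the comparison of cell groups. The values of Jak1, Jak3, Il4, Il7, Il9, Il15, Gabpa and the pathway genes of the cell groups are outside that rule and were chosen after their values were seen.

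On simulated counts, 69% of genes changed 2-fold and 22% of those changed 1.5-fold were recovered for liver over spleen (10162 genes), and 71% and 33% for the cell groups (9454 genes), with 6.19% and 1.89% of the calls false. These counts had 1 fixed dispersion for all genes, left out genes with few UMIs, and differed between libraries only in depth and the set changes. The rates therefore need not hold for the real counts, whose spread differs between genes. Alternatives were DESeq2 1.42.0, other scalings and filters, thinning, the replicate block, leaving out each library, and other clusterings. Exact tests and intervals used scipy 1.17.1, and plots matplotlib 3.10.9.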

Additional observations from a re-analysis of the deposited data

Results flagged for a closer look

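In the comparison of cells with Il2rb only and cells with Il7r only, 4 named genes had effects that differed between organs by the interaction of cell group and organ (edgeR's quasi-likelihood test, adjusted over 8501 genes). On the log2 scale Klre1 rose by 0.68 in liver cells, 1.19 in spleen cells and 2.67 in lymph node cells (adjusted p 0.00524, 6.98e-05 and 3.36e-04), a difference of liver from lymph node of −2.00 (adjusted p 0.0399). Ifng was 0.43 in liver (adjusted p 0.199), 0.83 in spleen and 1.67 in lymph node, a difference of liver from lymph node of −1.24 (adjusted p 4.55e-04). Slamf6 fell by 0.89 on the log2 scale in liver and by 0.76 in spleen and was 0.79 in lymph node, where it was not called (adjusted p 0.336). The difference was −1.68 for liver from lymph node (adjusted p 0.0128) and −1.55 for spleen from lymph node (adjusted p 0.0498). Nfkbia was −0.05 in liver and 0.27 in spleen, neither called, and 0.41 in lymph node (adjusted p 3.12e-04), a difference of liver from lymph node of −0.46 (adjusted p 0.0234). The cells of lymph node with Il2rb only numbered 142 and 167.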

How the results depend on the processing

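Over 125 results and 1464 alternatives, 1268 were counted as unchanged. For a fold change this meant the same direction and the same side of the threshold. For a number of called genes it meant staying within a fixed factor of the main number. For a share, an odds ratio or a class level it meant staying within 1 SD of the main value. The cause of the changes below was not tested. The organ calls of Il2rb and Il7r over all cells were kept under every alternative run, leaving out each library included. The alternatives without the iNKT17-like cluster, and the comparison of cell groups limited to iNKT1-like clusters, were chosen after seeing the data. DESeq2 called 1332, 2360 and 1023 genes for liver over spleen, liver over lymph node and spleen over lymph node (edgeR 2650, 3850 and 1868). Leaving out 1 library gave 1377 to 2434, 2422 to 4052 and 1029 to 1936 genes, with the lowest counts without liver library 1 (and 1390 without spleen library 2), lymph node library 2 and lymph node library 2. For cells with Il2rb only over cells with Il7r only (305 genes), 158 were called with no replicate block, 132 with DESeq2, 110 with cells thinned to 1000 UMIs, 196 with at least 2 UMIs of the one gene, 194 without the iNKT17-like cluster, 22 in iNKT1-like clusters, and 176 to 251 without 1 library (lowest without spleen library 1).

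Of the members' organ calls, Il15ra in spleen over lymph node passed in 6 of 14 alternatives and in liver over lymph node in 12, and Il21r in spleen over lymph node in 11.

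Some members that were not called changed sign, and the ranges of some called members are given with them. Il15ra in liver over spleen was −0.0064 with libraries thinned to the smallest total. Between the cell groups, thinning cells gave −0.056 for Il2ra, −0.056 for Il2rg and −0.078 for Il4ra. Il2rg was −0.31 with at least 2 UMIs and −0.046 in iNKT1-like clusters, where Nfkbia was −0.12. Without 1 library Il2ra was −0.065 to 0.39 and Il2rg −0.020 to 0.036. Among iNKT1-like cells at resolution 1.0, Il15ra was 0.014 in liver over spleen, and Il2ra 0.10 and Il2rg 0.010 in spleen over lymph node. Il2rb there was 0.93 with DESeq2 (adjusted p 0.200) and 0.85 to 1.23 without 1 library. Without 1 library Il15ra was −0.16 to 0.035 in liver over spleen, and Il2rg −0.64 to 0.034 in liver over lymph node and −0.36 to 0.32 in spleen over lymph node. Among iNKT17-like cells, Il2rb in spleen over lymph node was −0.14 with no filter and −0.61 to 0.33 without 1 library. In liver over spleen Il2rb was 2.73 to 3.67, Il2rg −0.66 to 0.058 and Il7r −0.17 to 0.11. Among RTE-like cells without 1 library, Il2rb was 1.21 to 2.08, 1.70 to 2.77 and −0.022 to 1.05 in the 3 comparisons, Il7r −0.12 to 0.49, −0.28 to 0.31 and −0.49 to 0.091, and in liver over lymph node Il2rg −0.035 to 0.27 and Il21r −0.59 to 0.25.

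The Il2rb share in iNKT1-like cells was 77.4% for liver, 34.4% for spleen and 16.9% for lymph node, and 15.5% in lymph node without the iNKT17-like cluster. The odds ratio in liver was 0.967 with no thinning (SD 0.123, which reached past 1), 0.728 with 2000 UMIs, 0.923 within iNKT1-like cells and 0.757 over 10 strata by UMI count. In spleen it was 0.925 within iNKT1-like cells, and 0.800 with 2000 UMIs, where the SD of 0.222 reached past the lymph node value. In lymph node it was 0.579 with no thinning, 0.583 with 500 UMIs, 0.653 with 2000 UMIs, 0.685 within iNKT1-like and 0.750 within iNKT17-like cells, 0.576 over 10 strata by UMI count and 0.618 over clusters. Il7r in RTE-like cells was 476 CPM with 10 principal components.

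In the organ comparison the replicate block, on numbers that the labels do not pair, called Il21r in liver over spleen (0.28, edgeR adjusted p 0.0403) and Il2rg in liver over lymph node (−0.25, adjusted p 0.0406), and changed no other member's call there. Among iNKT1-like cells it called Il2rg in liver over spleen (−0.28, adjusted p 0.0286). With 2 libraries per organ, p-values rest on a spread pooled over the 3 organs. Il15ra, Il4ra and Il2ra rest on 371 to 1128 UMIs in all.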
